A study of Mus musculus with 18 samples.

Results

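The genes described here encode the core proteins of RNA interference and of the microRNA pathway: the 4 Argonautes *Ago1*, *Ago2*, *Ago3* and *Ago4*, the nuclease *Dicer1*, the nuclear pair *Drosha* and *Dgcr8*, and the 3 TNRC6 proteins *Tnrc6a*, *Tnrc6b* and *Tnrc6c*. They were chosen by gene symbol, and all 10 were found among the 55414 genes counted and passed the filter on low counts that left 19003 genes for testing. Their mRNA was measured by RNA-seq of rRNA-depleted total RNA in N2A (Neuro-2a) cells, a mouse neuroblastoma line, 72 h after transfection with 1 of 6 siRNAs. There were 2 Scramble siRNAs as control (Scramble KD), 2 siRNAs to *Fmr1*, which encodes the RNA-binding translational repressor FMRP (*Fmr1* KD), and 2 siRNAs to *Zfp598*, which encodes a ubiquitin ligase that recognizes collided ribosomes (*Zfp598* KD). Each siRNA had 3 libraries, so each KD had 6, and the siRNAs are named A and B as in the labels. An siRNA acts through Argonautes, which are among these proteins, and every library came from transfected cells. A level without transfection was therefore not measured, and the comparisons show only how the machinery differed between one siRNA and another.

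In the microRNA pathway a hairpin in a primary transcript is cut out in the nucleus by DROSHA with its RNA-binding partner DGCR8, exported, and cut again by Dicer to a short duplex. One strand is loaded into an Argonaute, and bases 2 to 8 of that strand, the seed, pair with target mRNAs. Argonaute then binds a TNRC6 (GW182) protein, which brings in the deadenylases that shorten the target's poly(A) tail. A perfectly matched siRNA enters at the loading step and directs AGO2, the mammalian Argonaute best known as a slicer, to cut its target. In neuronal cells microRNAs such as miR-124 and miR-9 are abundant and Argonaute and FMRP have been found on the same messenger ribonucleoproteins.

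In the GENCODE M39 annotation of GRCm39, the build of the deposited counts, *Ago3* (chromosome 4, 126225496 to 126323362), *Ago1* (126328805 to 126362498) and *Ago4* (126383334 to 126427406) lie side by side on the reverse strand of chromosome 4, whereas *Ago2* is on its own (chromosome 15, 72967693 to 73056784, reverse strand). *Dicer1* is on chromosome 12, 104654001 to 104718211 (reverse), *Drosha* on chromosome 15, 12824839 to 12935474 (forward) and *Dgcr8* on chromosome 16, 18069575 to 18107140 (reverse). *Tnrc6a* is on chromosome 7, 122723094 to 122794519, *Tnrc6b* on chromosome 15, 80595019 to 80825286 and *Tnrc6c* on chromosome 11, 117544908 to 117654265, all on the forward strand. Exons of *Dgcr8* share 3062 bases, 27.3% of their length, with the antisense gene *Trmt2a*, and the strand setting of the counting is not given in the sources used here, so reads there cannot be told apart. For *Ago2* the exon bases shared with the antisense gene *Chrac1* made up 1.55%.

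3 of the members overlap annotated microRNA genes, and in *Dgcr8* and *Tnrc6b* these lie wholly in exons. In *Dgcr8* these are Mir3618 (chromosome 16, 18102414 to 18102501) and Mir1306 (chromosome 16, 18102103 to 18102181). It is well known that DROSHA and DGCR8 cut the hairpins in *Dgcr8* mRNA itself, which lowers that mRNA. *Tnrc6b* holds Mir5113 (chromosome 15, 80824240 to 80824321). In *Drosha* the microRNA gene is Gm54568 (chromosome 15, 12842182 to 12842321), which shares 72 bases with its exons. The mature sequences of miR-1306 and miR-5113 are shown because *Dgcr8* and *Tnrc6b* mRNA and these microRNAs come from the same transcripts. They are from RefSeq's GRCm38.p6 tables, and the capitals mark the seed.
mmu-miR-1306-5p: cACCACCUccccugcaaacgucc
mmu-miR-1306-3p: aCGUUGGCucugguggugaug
mmu-miR-5113: aCAGAGGAggagagagauccugu
The counts are of reads on exons of long transcripts, and mature microRNAs were not measured.

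Each siRNA target was lower in its own KD. *Fmr1* was at 60.1 ± 6.42 CPM (read counts scaled to library size, mean ± SD, n = 6) in Scramble KD and 22.4 ± 5.10 in *Fmr1* KD (log2 fold change -1.43 ± 0.14 (SE), adjusted p = 1.08e-05), and *Zfp598* fell from 118 ± 9.52 to 41.0 ± 5.37 (log2 fold change -1.53 ± 0.10 (SE), adjusted p = 1.13e-08). CPM values use library sizes scaled by the TMM method. In such bulk RNA, fewer cells with a transcript and less of it per cell cannot be told apart. The quasi-likelihood test of edgeR gave the p-values, which were adjusted over the 19003 genes (Benjamini-Hochberg), and "called" stands for an adjusted p under 0.05. *Fmr1* was also called lower with *Zfp598* siRNA B against Scramble siRNA B (log2 fold change -0.33, adjusted p = 0.0401) but not with *Zfp598* siRNA A against Scramble siRNA A (0.28, adjusted p = 0.121), and the siRNA effects differed by -0.61, adjusted p = 0.0103. Total counts ranged from 7674724 to 15414590, and each member had between 21 and 13646 counts in a library. 1 feature that the annotation does not list took 5.00% to 25.8% of the counts, with the largest shares in *Zfp598* siRNA A replicate 3 (25.8%) and replicate 2 (15.2%). Of 14 neuroblastoma and neuronal markers 12 were tested, among them *Hand2*, *Tubb3* and *Stmn2*, whereas *Nefl* (0 to 6 counts) and *Nefm* (0 to 4 counts) were at or near 0 in every library. By edgeR 7 of the 12 were lower with Scramble siRNA B against Scramble siRNA A (*Chgb* -1.59, adjusted p = 4.14e-08, and *Chga* -1.19, adjusted p = 8.68e-08) and 7 with *Fmr1* siRNA A. With *Fmr1* siRNA B 6 were higher, and there were 2 higher and 4 lower with *Zfp598* siRNA A, and 5 higher and 1 lower with *Zfp598* siRNA B. Over all genes tested, in the same order of comparisons, 21.1%, 22.0%, 21.4%, 11.0% and 25.2% were called. The part of these markers in the members' differences was not tested. Their summed level was 1927 to 2108 CPM with Scramble siRNA A and 1254 to 1404 with Scramble siRNA B. Of 5 fibroblast markers, which summed to 6.45 to 19.0 CPM, *Lum* had 0 counts and *Col1a2* 0 to 1. *Pdgfra* had 70 to 210 counts and was higher in *Fmr1* KD (0.96, adjusted p = 0.00224). This rise was not particular to *Fmr1* KD, since *Pdgfra* was also called higher with *Zfp598* siRNA B (adjusted p = 0.000162). *Dcn*, with 0 to 18 counts, was called lower with *Fmr1* siRNA B (-2.55, adjusted p = 0.0109). Between the Scramble siRNAs 2 of the 3 tested fibroblast markers were called lower with Scramble siRNA B. Of 6 glial markers, which summed to 17.2 to 34.6 CPM, *Aqp4* had 0 to 1 counts and *Mbp* 127 to 448, with *Mbp* called lower with *Fmr1* siRNA A (-0.78, adjusted p = 7.3e-05). *Mbp* was also called lower with *Zfp598* siRNA B (-0.36, adjusted p = 0.036) and with Scramble siRNA B against Scramble siRNA A (-0.38, adjusted p = 0.0266). *Pdgfra*, *Dcn*, *Mbp*, *Chgb* and *Chga* were named after their values were seen. A list of 20 proliferation genes summed to 1139 to 1283 CPM in Scramble siRNA A libraries and to 2221 to 2554 CPM in Scramble siRNA B libraries. All 20 were called higher with Scramble siRNA B, as were 9.48% of all genes tested. The paper describes knockdown in triplicate for each siRNA. The labels say no more on how independent the triplicates were, and p-values measure the spread between these libraries.

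Levels were compared between members per kilobase of exon (RPKM, from the TMM-scaled CPM and the summed exon length of all annotated isoforms). *Ago2* was the most abundant member in every siRNA group, at 57.3 ± 6.36 RPKM (mean ± SD, n = 6) in Scramble KD, and its 6 libraries lay above those of every other member. *Tnrc6a* (12.2 ± 2.98), *Dicer1* (11.7 ± 0.545), *Tnrc6b* (11.0 ± 1.20), *Drosha* (9.78 ± 0.922), *Ago1* (8.18 ± 2.14) and *Tnrc6c* (8.02 ± 0.654) followed, and each neighbor in this order overlapped the next. *Ago3* (4.14 ± 0.506) and *Dgcr8* (4.14 ± 0.221) overlapped each other below them, and *Ago4* was lowest at 0.553 ± 0.106 RPKM, apart from all others. *Ago2* kept rank 1 and *Ago4* rank 10 in all 6 siRNA groups, while *Ago1* moved between rank 2 (*Zfp598* siRNA B) and rank 7 (Scramble siRNA B).

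**Figure D1:**
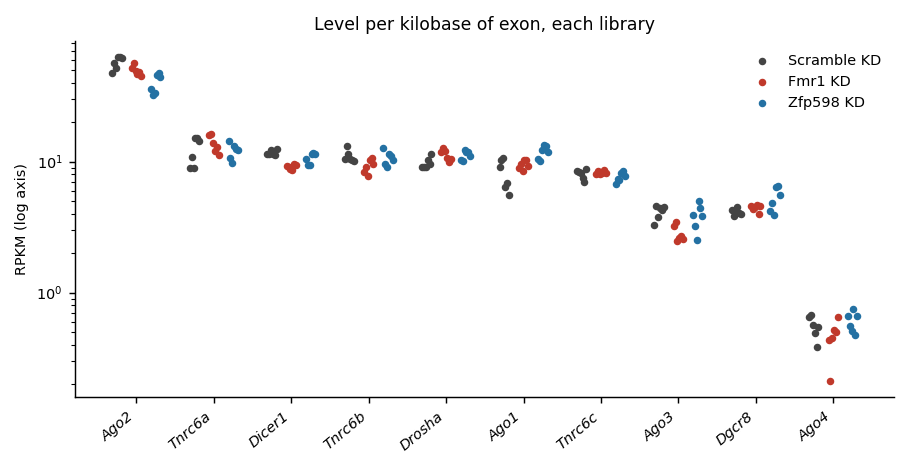
Level of each member in RPKM (log axis) in each of the 18 libraries, 6 per KD, with members ordered by their mean in Scramble KD. *Ago2* sits above and *Ago4* below all other members in each KD, and the 6 genes from *Tnrc6a* to *Tnrc6c* overlap.

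Among the Argonautes *Ago2* made up 68.5% to 85.3% of the summed RPKM over the 18 libraries, and *Ago4* 0.304% to 1.29%. The share of *Ago1* was 8.57% ± 0.795 (SD, n = 3) with Scramble siRNA B, 15.1% ± 0.912 with Scramble siRNA A, 22.5% ± 2.47 with *Zfp598* siRNA A and 20.0% ± 0.374 with *Zfp598* siRNA B. Correspondingly, the share of *Ago2* ran from 69.7% ± 1.08 (*Zfp598* siRNA A) and 72.1% ± 1.16 (*Zfp598* siRNA B) to 84.8% ± 0.439 (Scramble siRNA B). The 3 TNRC6 genes were closer to one another, with *Tnrc6a* at 31.4% to 49.4%, *Tnrc6b* at 25.7% to 40.9% and *Tnrc6c* at 19.9% to 30.4% of their sum. *Tnrc6b* was the largest of the 3 with Scramble siRNA A (39.5% ± 1.66), and *Tnrc6a* was the largest in each other siRNA group. This order depends on the annotated exon lengths, 24959 bases for *Tnrc6b* and 14694 for *Tnrc6a*. In CPM, which is not divided by length, the mean of *Tnrc6b* was above that of *Tnrc6a* in every siRNA group except *Fmr1* siRNA A. These shares are given as values without a test.

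When the 6 libraries of a KD were pooled, as the study did, 2 of the 10 members were called in each KD. In *Fmr1* KD both were lower, *Dicer1* and *Ago3*, and over all genes tested 6.05% were called, 2.62% higher and 3.43% lower. In *Zfp598* KD *Ago1* was higher and *Ago2* lower, where 1.80% of all genes were called, 0.831% higher and 0.968% lower. With 10 members these counts are small numbers, and none of the 4 calls exceeded 2-fold, a size that 1.07% of all genes reached with a call in *Fmr1* KD and 0.447% in *Zfp598* KD. 4 members had an unadjusted p under 0.05 in each KD. The share of all genes with such a p was not computed, so these counts have no background to be read against. The median log2 fold change of the members was -0.08 in *Fmr1* KD and -0.03 in *Zfp598* KD, against 0.00740 and 0.01 over all genes. Both comparisons use the same 6 Scramble KD libraries, and both treat the libraries of 2 siRNAs as 6 replicates.

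By siRNA, 3 libraries were set against the 3 of the Scramble siRNA with the same letter. This match is a choice, since neither the labels nor the paper's text links an siRNA to the Scramble siRNA of its letter. An alternative used all 6 Scramble KD libraries as the control. With *Fmr1* siRNA A 5 members were called (2 higher, 3 lower; 22.0% of all genes called, 9.35% higher and 12.7% lower) and with *Fmr1* siRNA B 4 (1 higher, 3 lower; 21.4%, 11.0% and 10.4%). With *Zfp598* siRNA A 2 were called, both lower (11.0% of all genes called, 5.60% higher and 5.43% lower), and with *Zfp598* siRNA B 3, of which 2 were higher (25.2%, 12.0% and 13.2%). Scramble siRNA B against Scramble siRNA A, which compares 2 controls, also gave 3 called members, 2 higher and 1 lower (21.1% of all genes called, 9.48% higher and 11.6% lower). The count between the controls was thus that of *Zfp598* siRNA B. Of all these calls 1 exceeded 2-fold, *Ago1* with *Zfp598* siRNA B, a size that 5.16% of all genes reached with a call there. The test of the difference between siRNA B and siRNA A effects called 6 members for *Fmr1* (3 higher, 3 lower; 20.5% of all genes, 11.6% higher and 8.86% lower) and 3 for *Zfp598* (2 higher, 1 lower; 20.4%, 9.77% and 10.6%). In the *Fmr1* test 1 member, *Ago4*, passed 2-fold, against 6.91% of all genes.

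**Figure D2:**
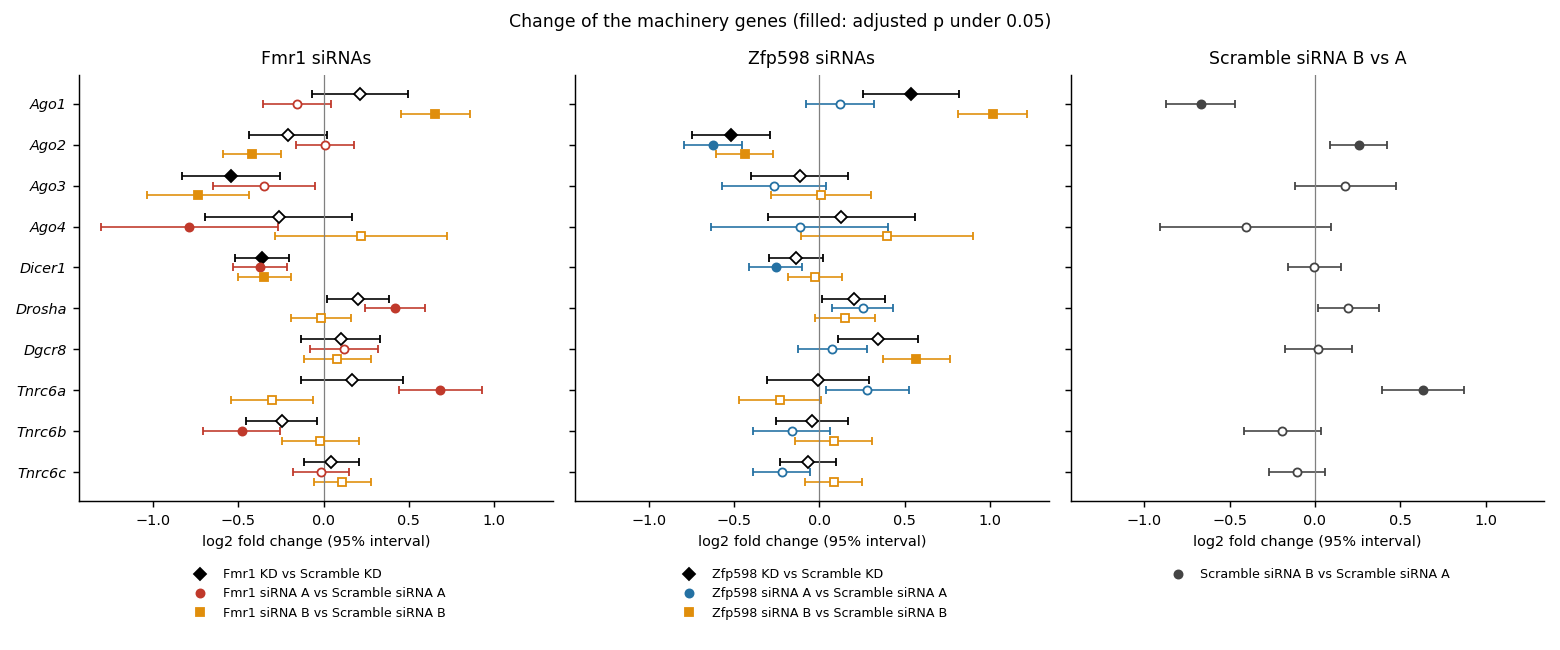
Log2 fold change of each member with its 95% interval, for the pooled KD and each siRNA, and for Scramble siRNA B against Scramble siRNA A; filled symbols have an adjusted p under 0.05. *Dicer1* lies near -0.36 for both *Fmr1* siRNAs, *Ago2* is below 0 for both *Zfp598* siRNAs, and *Ago1* and *Tnrc6a* differ between the Scramble siRNAs.

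*Dicer1*, which cuts hairpin precursors to the mature duplex, was lower with both *Fmr1* siRNAs. It was at 192, 190.5 and 206 CPM with Scramble siRNA A and 191, 187 and 209 with Scramble siRNA B (replicates 1, 2 and 3), and at 156, 152 and 146 with *Fmr1* siRNA A and 144, 160.1 and 157 with *Fmr1* siRNA B. All 6 *Fmr1* KD libraries lay below all 6 Scramble KD libraries, and the Scramble siRNAs did not separate. The pooled level fell by 22.1% (log2 fold change -0.36 ± 0.08 (SE), adjusted p = 0.00748, 95% interval -0.52 to -0.20). By siRNA the log2 fold change was -0.37 ± 0.08 (SE), adjusted p = 0.00101 for A, and -0.35 ± 0.08 (SE), adjusted p = 0.00193 for B. The difference between both effects was 0.02 (95% interval -0.20 to 0.25, adjusted p = 0.91). This call held without any single library, and was lost only when counts were summed per siRNA, with 2 values per KD (adjusted p = 0.999, in a fit where 0 of the 19003 genes were called and 1 member had an unadjusted p under 0.05). In *Zfp598* KD *Dicer1* was at 177, 158 and 157 CPM with siRNA A and 192, 194 and 191 with siRNA B. Only siRNA A gave a call, a log2 fold change of -0.26 ± 0.08 (SE), adjusted p = 0.0323, and its 2 lower libraries, replicates 2 and 3, are those with the largest share of the unannotated feature. Without both of them the value was -0.15 (adjusted p = 0.466), and the call was also lost without replicate 2 (0.143) or 3 (0.0878) of *Zfp598* siRNA A or without replicate 1 (0.0517), 2 (0.0673) or 3 (0.134) of Scramble siRNA A (adjusted p in each case). It was lost as well without the filter on low counts (0.0915). For siRNA B the log2 fold change was -0.03 (95% interval -0.18 to 0.13), and the difference between the siRNA effects was 0.23, adjusted p = 0.137, which passed the test only without *Zfp598* siRNA A replicate 1 (adjusted p = 0.0475).

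*Ago2*, the Argonaute through which siRNAs cut their targets, was lower with both *Zfp598* siRNAs. Its CPM values were 672, 807 and 736 with Scramble siRNA A and 890.4, 884 and 872 with Scramble siRNA B. They were 509.9, 458 and 470.4 with *Zfp598* siRNA A and 652, 676 and 626 with *Zfp598* siRNA B. Every *Zfp598* library lay below each library of the Scramble siRNA of its letter, although *Zfp598* siRNA B overlapped Scramble siRNA A. Pooled, *Ago2* fell by 30.2% (log2 fold change -0.52 ± 0.11 (SE), adjusted p = 0.0194). The effect was -0.62 ± 0.08 (SE), adjusted p = 4.42e-05 for siRNA A and -0.44 ± 0.08 (SE), adjusted p = 0.000434 for siRNA B, and their difference was 0.18 (95% interval -0.05 to 0.42, adjusted p = 0.281). The pooled call was lost without replicate 1, 2 or 3 of Scramble siRNA B (adjusted p = 0.0529, 0.0532 and 0.0503). With the *Fmr1* siRNAs *Ago2* was at 736, 802 and 691 CPM (A) and 658, 685 and 634 (B). *Fmr1* siRNA A overlapped its control (log2 fold change 0.01 ± 0.08 (SE), adjusted p = 0.953), whereas *Fmr1* siRNA B was below its control (-0.42 ± 0.08 (SE), adjusted p = 0.000708), and the difference between both was -0.43, adjusted p = 0.00982. Scramble siRNA B itself was above Scramble siRNA A by 0.26 ± 0.08 (SE), adjusted p = 0.0275, a call that was lost without replicate 1 (0.153) or 3 (0.0783) of Scramble siRNA A, or replicate 1 (0.0775) or 2 (0.0655) of Scramble siRNA B (adjusted p).

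*Ago1*, a second broadly expressed Argonaute, had the widest range of group means among the members, 2.02-fold from the lowest to the highest. It was at 75.6, 84.4 and 88.2 CPM with Scramble siRNA A and at 53.0, 57.0 and 46.2 with Scramble siRNA B, the lowest group. The Scramble siRNAs did not overlap and differed by -0.67 ± 0.10 (SE), adjusted p = 4.17e-05. With the *Zfp598* siRNAs it was at 86.6, 83.0 and 101 CPM (A) and 109, 108 and 98.3 (B), and with the *Fmr1* siRNAs at 74.2, 78.4 and 70.4 (A) and 84.7, 84.4 and 76.7 (B). *Ago1* was thus higher for both B siRNAs against Scramble siRNA B, by 1.02 ± 0.10 (SE), adjusted p = 2.69e-07, for *Zfp598* and 0.65 ± 0.10 (SE), adjusted p = 5.03e-05, for *Fmr1*. Neither A siRNA gave a call (0.12, adjusted p = 0.467, for *Zfp598* and -0.15, adjusted p = 0.28, for *Fmr1*). The siRNA effects differed in both KDs (0.90, adjusted p = 8.21e-05, for *Zfp598* and 0.81, adjusted p = 0.000189, for *Fmr1*). Since the A and B effects are each measured against another control, the low level with Scramble siRNA B enters both differences. Against all 6 Scramble KD libraries *Zfp598* siRNA A was higher by 0.46 (adjusted p = 0.00134). The pooled rise in *Zfp598* KD (0.54 ± 0.14 (SE), adjusted p = 0.045) was lost without any 1 of 13 libraries (adjusted p 0.0525 to 0.104). These 13 were all 3 of Scramble siRNA B, all 3 of *Zfp598* siRNA B, all 6 of *Fmr1* KD and *Zfp598* siRNA A replicate 3. It was lost as well with the replicate number as a block (adjusted p = 0.0701) and without the filter on low counts (0.0509). The pooled calls of *Ago1* and *Ago2* in *Zfp598* KD were thus in opposite directions. So were their calls with Scramble siRNA B against Scramble siRNA A (-0.67 for *Ago1* and 0.26 for *Ago2*).

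*Ago3* was lower in *Fmr1* KD, at 60.6, 65.4 and 47.0 CPM with siRNA A and 49.7, 51.3 and 48.7 with siRNA B. Its values were 62.2, 86.6 and 71.6 with Scramble siRNA A and 83.4, 81.0 and 85.5 with Scramble siRNA B. The 3 libraries of *Fmr1* siRNA B were below every Scramble KD library, and those of siRNA A overlapped Scramble siRNA A. Pooled, *Ago3* fell by 31.4% (log2 fold change -0.54 ± 0.14 (SE), adjusted p = 0.0216), a call lost without *Fmr1* siRNA A replicate 3 (adjusted p = 0.0531) or Scramble siRNA B replicate 2 (0.0513). By siRNA the effect was -0.74 ± 0.14 (SE), adjusted p = 0.000789, for B and -0.35 ± 0.14 (SE), adjusted p = 0.0886, for A, where the difference between them did not pass the test (-0.39, adjusted p = 0.199). For siRNA A the adjusted p was 0.0428 without Scramble siRNA A replicate 1, 0.0332 without *Zfp598* siRNA A replicate 1 and 0.0374 without *Zfp598* siRNA A replicate 3. It was 0.0483 with the replicate number as a block, 0.0154 without the filter on low counts, 0.0119 against all 6 Scramble KD libraries and 0.0291 without replicates 2 and 3 of *Zfp598* siRNA A. *Zfp598* siRNA A had 73.8, 60.6 and 47.6 CPM and *Zfp598* siRNA B 94.7, 84.2 and 72.5, and neither was called, although siRNA A was without its replicate 1 (adjusted p = 0.032). *Ago4* was near the limit of what the depth resolves, with 21 to 75 counts per library. It was at 3.19, 1.56 and 3.33 CPM with *Fmr1* siRNA A and 4.76, 4.97 and 4.18 with Scramble siRNA A, and these groups did not overlap (-0.79 ± 0.25 (SE), adjusted p = 0.0268). *Fmr1* siRNA A replicate 2 was the lowest of all 18 libraries. Without it the adjusted p was 0.16, and the call was also lost without Scramble siRNA A replicate 1 (0.0638) or 2 (0.0711). Against all 6 Scramble KD libraries the log2 fold change was -0.58 and was not called (adjusted p = 0.0543). Elsewhere *Ago4* stayed between 2.83 and 5.46 CPM, and no other single-siRNA comparison called it. Its siRNA effects in *Fmr1* KD differed by 1.00 ± 0.35 (SE), adjusted p = 0.0443, and 11 of the 18 libraries each ended that call when left out (adjusted p 0.0509 to 0.129). They were the 3 of Scramble siRNA A, the 3 of *Fmr1* siRNA B, replicates 1 and 2 of Scramble siRNA B and replicate 2 of *Fmr1* siRNA A, as well as *Zfp598* siRNA A replicate 2 and *Zfp598* siRNA B replicate 3, which enter through the shared estimate of spread.

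**Figure D3:**
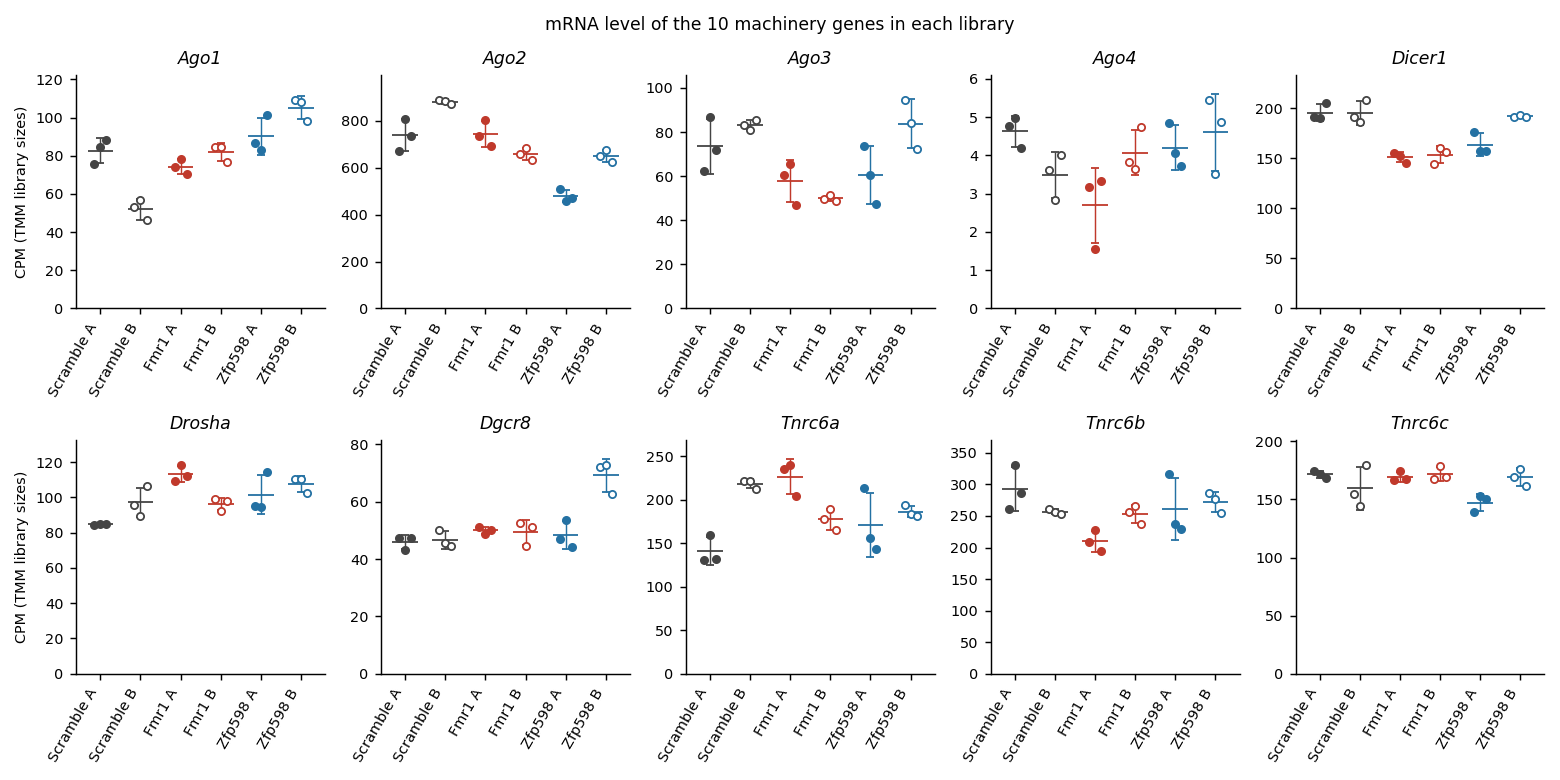
CPM of each member in each library, with 3 libraries per siRNA (filled circles for siRNA A, open for siRNA B), the group mean (line) and SD (bar); each y axis starts at 0. *Dicer1* is lower in all 6 *Fmr1* KD libraries than in all 6 Scramble KD libraries, *Ago1* is lowest with Scramble siRNA B, *Dgcr8* is highest with *Zfp598* siRNA B, and *Tnrc6a* is lowest with Scramble siRNA A.

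*Drosha* and *Dgcr8*, the 2 parts of the nuclear Microprocessor, were each called with 1 KD siRNA against the control of its letter, *Drosha* with *Fmr1* siRNA A and *Dgcr8* with *Zfp598* siRNA B. *Drosha* was at 84.5, 85.2 and 84.8 CPM with Scramble siRNA A, the tightest group of any member, and 95.6, 89.7 and 106 with Scramble siRNA B. It was at 109, 118 and 112 with *Fmr1* siRNA A and 98.9, 92.2 and 97.7 with *Fmr1* siRNA B. Of these only *Fmr1* siRNA A rose beyond its control (0.42 ± 0.08 (SE), adjusted p = 0.00109), and siRNA B overlapped its own (-0.01, adjusted p = 0.933), with a difference between the effects of -0.43, adjusted p = 0.0132. In *Zfp598* KD it was at 95.3, 94.8 and 115 (A) and 110.4, 110.3 and 102 (B), and neither siRNA was called with edgeR. *Zfp598* siRNA A was called with DESeq2 (log2 fold change 0.27, adjusted p = 0.0249) and, with edgeR, without its replicate 1 (0.0179). *Zfp598* siRNA B was called against all 6 Scramble KD libraries (0.25, adjusted p = 0.0146). *Dgcr8* was within 43.3 to 53.7 CPM in the 15 libraries of the other 5 groups and at 72.1, 72.8 and 62.6 with *Zfp598* siRNA B. All 3 of these libraries were above all others, and the rise over Scramble siRNA B, at 50.2, 45.5 and 44.4, was 48.2% (log2 fold change 0.57 ± 0.09 (SE), adjusted p = 0.000148). *Zfp598* siRNA A, at 47.1, 53.7 and 44.2, overlapped its control (0.08, adjusted p = 0.679), and the siRNA effects differed by 0.49 ± 0.14 (SE), adjusted p = 0.013. *Trmt2a*, the gene whose exons overlap *Dgcr8*, had a log2 fold change of 0.21, adjusted p = 0.142, with *Zfp598* siRNA B, and the part of reads from the shared exons in the rise was not tested. Pooled over both *Zfp598* siRNAs *Drosha* (0.20, adjusted p = 0.236) and *Dgcr8* (0.35, adjusted p = 0.111) were above Scramble KD without a call with edgeR. *Dgcr8* was called with DESeq2 (adjusted p = 0.0415). It was also called without both *Zfp598* siRNA A libraries that had the largest share of the unannotated feature (adjusted p = 0.0207), and without *Zfp598* siRNA A replicate 1 (0.0432) or 3 (0.0475) alone.

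The TNRC6 proteins, which link Argonaute to deadenylation, differed from one another. *Tnrc6a* was at 131, 159.5 and 132 CPM with Scramble siRNA A and 221, 222 and 212 with Scramble siRNA B, so that the controls did not overlap (0.63 ± 0.12 (SE), adjusted p = 0.000457). It was at 236, 239.8 and 204 with *Fmr1* siRNA A and 178, 189 and 165 with *Fmr1* siRNA B. *Fmr1* siRNA A was above its control (0.68 ± 0.12 (SE), adjusted p = 0.000179) and *Fmr1* siRNA B below its own without a call (-0.30 ± 0.12 (SE), adjusted p = 0.0675). The latter passed the test without Scramble siRNA A replicate 2 (adjusted p = 0.0459), *Zfp598* siRNA A replicate 1 (0.00795) or *Zfp598* siRNA A replicate 3 (0.0239). It also passed with the replicate number as a block (0.0376), without the filter on low counts (0.0179) and without replicates 2 and 3 of *Zfp598* siRNA A (0.00571). The effects differed by -0.99 ± 0.16 (SE), adjusted p = 0.000159, the largest difference of the 10 members relative to its error. In *Zfp598* KD it was at 213, 156 and 143 (A) and 194, 184 and 181 (B). Neither siRNA was called, and the effects differed by -0.51, adjusted p = 0.0313, a call that leaving out any of 7 libraries ended (adjusted p 0.0594 to 0.0753), namely replicates 1 and 3 of Scramble siRNA A, 1 and 2 of Scramble siRNA B, 1 of *Zfp598* siRNA A, and 2 and 3 of *Zfp598* siRNA B. Within *Zfp598* siRNA A the libraries spread from 143 to 213 CPM. Without replicates 2 and 3, which hold the largest shares of the unannotated feature, the log2 fold change was 0.59 (adjusted p = 0.00397), and without replicate 3 alone it was 0.39 (0.0357). *Zfp598* siRNA B was called without *Zfp598* siRNA A replicate 1 (adjusted p = 0.0423). *Tnrc6a* and the proliferation list were both higher with Scramble siRNA B than with Scramble siRNA A, and the part of proliferation in *Tnrc6a* was not tested. The list summed to 1107 to 1167 CPM with *Fmr1* siRNA A and 1937 to 2056 with *Fmr1* siRNA B. It summed to 1576 to 1730 CPM with *Zfp598* siRNA A and 1691 to 1798 with *Zfp598* siRNA B.

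*Tnrc6b* was at 261, 331 and 286 CPM with Scramble siRNA A, 261, 257 and 253 with Scramble siRNA B and 256, 266 and 238 with *Fmr1* siRNA B. It was lowest with *Fmr1* siRNA A, at 208, 227 and 194, with all 3 libraries below every Scramble KD library (-0.48 ± 0.11 (SE), adjusted p = 0.00277). The siRNA effects in *Fmr1* KD differed by 0.46 ± 0.15 (SE), adjusted p = 0.0377, a call that 10 of the 18 libraries each ended when left out (adjusted p 0.0514 to 0.105). They were replicates 2 and 3 of Scramble siRNA A, all 3 of Scramble siRNA B, 1 and 3 of *Fmr1* siRNA A, 1 and 2 of *Fmr1* siRNA B and 2 of *Zfp598* siRNA B. With *Zfp598* siRNA A it was at 317, 238 and 229 and with *Zfp598* siRNA B at 286, 276 and 255, neither called. Without *Zfp598* siRNA A replicate 1, its highest library, the effect of that siRNA was -0.32 (adjusted p = 0.0163), and the difference between the *Zfp598* siRNA effects was 0.41 (0.0187). *Tnrc6c* was the steadiest member, with group means that spanned 1.17-fold and 139 to 180 CPM over the 18 libraries, and was called in none of the 9 comparisons. Its pooled log2 fold change was 0.05 in *Fmr1* KD (95% interval -0.12 to 0.21, adjusted p = 0.794) and -0.06 in *Zfp598* KD (95% interval -0.23 to 0.10, adjusted p = 0.723). The largest of its single-siRNA values was -0.22 with *Zfp598* siRNA A, where the 3 libraries were below all of Scramble siRNA A (adjusted p = 0.0825). The difference between its *Zfp598* siRNA effects was 0.31, adjusted p = 0.0613, and 0.0147 without Scramble siRNA B replicate 3.

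Over the 18 libraries the members' levels (log2 of CPM plus 0.5) were compared with one another and with the 12109 genes of at least 50 counts on average. The libraries share siRNA groups and a scaling, so these correlations are a description. *Ago3* and *Dicer1* had the highest correlation among members (r = 0.83), followed by *Dicer1* and *Tnrc6b* (0.63) and *Ago3* and *Tnrc6b* (0.62). The lowest was that of *Ago1* and *Ago2* (-0.62), and *Drosha* and *Dgcr8* had r = 0.39. The genes most like *Dicer1* were *Pank3* (r = 0.94), a pantothenate kinase, *Hsp90b1* (r = 0.92) and *Canx* (r = 0.92), both chaperones of the endoplasmic reticulum. Most like *Ago2* were *Mthfd2* (r = 0.91), an enzyme of mitochondrial folate metabolism, *Susd6* (r = 0.91) and *Pde12* (r = 0.90). For the other members the most similar genes were *Plekha6* (r = 0.91) for *Ago1*, *Mier3* (r = 0.95) for *Ago3*, *Pou2f2* (r = 0.81) for *Ago4*, *Mief1* (r = 0.89) for *Drosha*, *Nipa2* (r = 0.90) for *Dgcr8*, *Got2* (r = 0.96) for *Tnrc6a*, *Unc5c* (r = 0.92) for *Tnrc6b* and *Thbs3* (r = 0.79) for *Tnrc6c*.

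The proteins that work with the members were described by 8 lists with 66 genes, of which 64 were tested. In the pooled *Fmr1* KD 2 were higher and 6 lower (median log2 fold change -0.03; 2.62% and 3.43% of all genes tested), and in *Zfp598* KD 0 were called by edgeR (median -0.01; 1.80% of all genes), where 16 had an unadjusted p under 0.05 and the lowest adjusted p was 0.0522. For the 16 no share of all genes was computed. DESeq2 called 6 of the 64 genes in *Zfp598* KD, *Ddx17*, *Srrt*, *Srsf3*, *Stip1*, *Tsn* and *Tut7*, and 11 in *Fmr1* KD. The shares of all genes above are from edgeR, and those for DESeq2 are not given here, so its counts have no background to be read against. Per siRNA the counts higher and lower were 11 and 10 with *Fmr1* siRNA A, 3 and 15 with *Fmr1* siRNA B, 5 and 4 with *Zfp598* siRNA A, 8 and 10 with *Zfp598* siRNA B, and 10 and 8 between the Scramble siRNAs. Over all genes tested, in the same order, 22.0%, 21.4%, 11.0%, 25.2% and 21.1% were called. The 18 TNRC6 effectors, most of them factors that remove tails and caps, held 3 of the 6 genes lower in *Fmr1* KD. These were the deadenylase subunits *Cnot6l* (-0.53, adjusted p = 0.00865) and *Pan2* (-0.37, adjusted p = 0.0186) and the decapping enzyme *Dcp2* (-0.47, adjusted p = 0.0245). The others were *Trim71* (-0.40, adjusted p = 0.0322), and 2 enzymes that add nucleotides to RNA ends, *Tut4* (-0.36, adjusted p = 0.043) and *Tent2* (-0.37, adjusted p = 0.045). The 2 higher genes were *Hsp90aa1* (0.45, adjusted p = 0.0188), a chaperone that helps load Argonaute, and *Zswim8* (0.46, adjusted p = 0.0347), part of the ligase that degrades Argonaute bound to certain targets. For 5 of these 8 genes the *Fmr1* siRNA effects differed. *Pan2*, *Tut4* and *Tent2* were called with siRNA B (-0.54, -0.58 and -0.69) and not with siRNA A (-0.18, -0.10 and -0.06), with differences of -0.35, adjusted p = 0.0258, -0.48, adjusted p = 0.00768, and -0.63, adjusted p = 0.000803. *Hsp90aa1* and *Zswim8* were called with siRNA A (0.63 and 0.78) and not with siRNA B (0.22 and 0.06), with differences of -0.41, adjusted p = 0.0152, and -0.72, adjusted p = 0.000386.

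*Dcp2* was called lower with each of the 4 siRNAs against the Scramble siRNA of its letter, at -0.62 and -0.34 for *Fmr1* siRNAs A and B, and -0.51 and -0.26 for *Zfp598* siRNAs A and B (adjusted p = 5.03e-05, 0.01, 0.00143 and 0.0476). Its CPM values were 105, 88.2 and 94.1 with Scramble siRNA A and 106, 93.9 and 119 with Scramble siRNA B, against 61.7, 63.9 and 60.8 and 88.6, 81.5 and 81.2 with *Fmr1* siRNAs A and B. With *Zfp598* siRNAs A and B they were 71.1, 68.0 and 61.5 and 86.8, 85.7 and 94.8, and only the last group overlapped its control. *Lin28a*, which blocks the maturation of let-7, followed another pattern. It was at 83.1, 72.3 and 83.5 CPM with Scramble siRNA A and 133, 141 and 143 with Scramble siRNA B (0.80, adjusted p = 7.26e-06), and was higher with both A siRNAs against that lower control (1.20, adjusted p = 5.17e-08, for *Fmr1* and 1.00, adjusted p = 2.04e-06, for *Zfp598*). Neither B siRNA was called, and the siRNA effects differed by -1.32, adjusted p = 1.13e-06, in *Fmr1* KD and -1.21, adjusted p = 4.12e-06, in *Zfp598* KD.

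With *Zfp598* siRNA B, where *Dgcr8* was higher, 6 of the 11 nuclear processing partners were called, 4 higher and 2 lower (12.0% and 13.2% of all genes), with *Srsf3* at 1.00, adjusted p = 6.32e-07, and *Srrt* at 0.79, adjusted p = 1.05e-05, above, and the helicase *Ddx17* at -0.76, adjusted p = 1.78e-07, below. *Srsf3* and *Srrt* were also higher with *Fmr1* siRNA B (0.67, adjusted p = 6.55e-05, and 0.48, adjusted p = 0.00186), while *Srsf3* was lower with Scramble siRNA B than with Scramble siRNA A (-0.50, adjusted p = 0.00131). The export factor *Xpo5* was called with *Fmr1* siRNA A (0.52, adjusted p = 0.000528) and not with siRNA B (0.00, adjusted p = 0.997), a difference of -0.52, adjusted p = 0.00987. Dicer's partner *Tarbp2* was called between the Scramble siRNAs (-0.40, adjusted p = 0.0297) and with none of the 4 KD siRNAs. With *Fmr1* siRNA B all 4 calls among the 7 genes of microRNA tailing and decay were lower (*Tent2* -0.69, *Tut4* -0.58, *Dis3l2* -0.39 and *Lin28b* -0.38), as were the 3 with *Zfp598* siRNA B (*Tut4* -0.46, *Tent2* -0.44 and *Parn* -0.41). Of all genes 10.4% were called lower with *Fmr1* siRNA B and 13.2% with *Zfp598* siRNA B. All 7 had a log2 fold change above 0 between Scramble siRNA B, the control of both, and Scramble siRNA A (median 0.22), where *Tut4* (0.40, adjusted p = 0.00257) and *Lin28a* were called. With each A siRNA 1 of the 7 was called, *Lin28a*, and it was higher. Of the germline PIWI proteins *Piwil2* alone was tested, at 0.949 to 3.36 CPM, and was not called. *Pan2*, *Trim71*, *Tut4*, *Tsn*, *Tut7*, *Xpo5*, *Tarbp2*, *Dis3l2*, *Lin28b* and *Parn* were named after their values were seen.

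**Figure D4:**
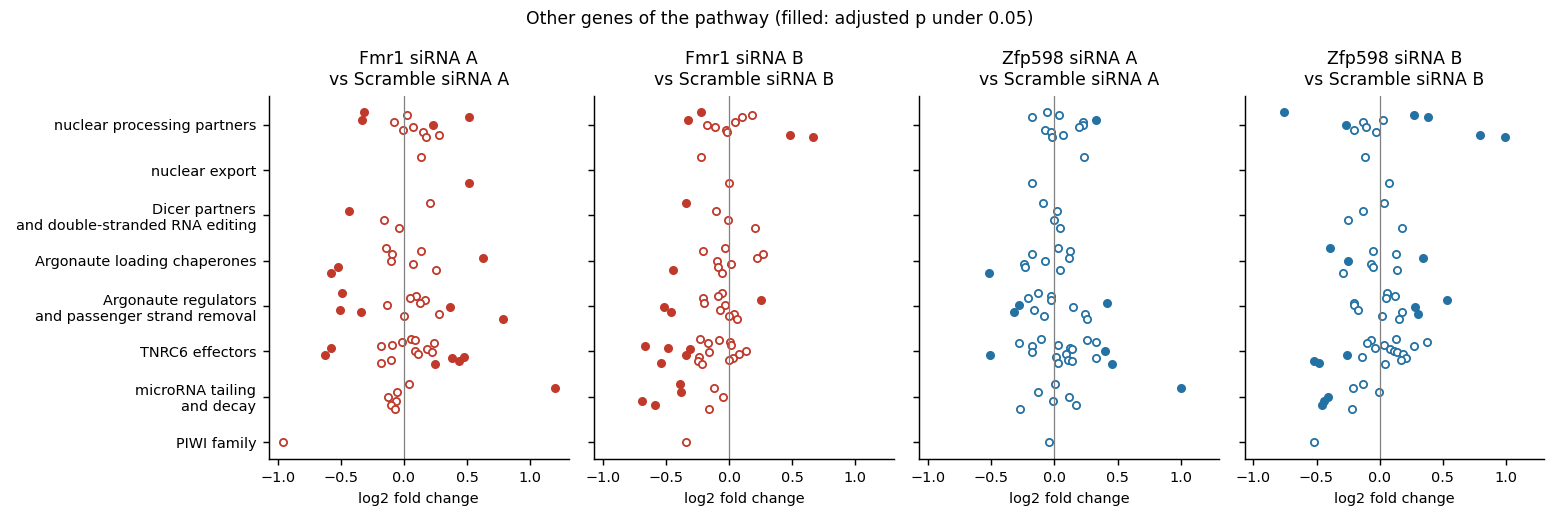
Log2 fold change of the 64 tested pathway genes for each siRNA against the Scramble siRNA of its letter, 1 circle per gene, grouped by list; filled circles have an adjusted p under 0.05. The isolated points on the right for siRNAs A are *Lin28a*, and those for *Zfp598* siRNA B are *Srsf3* and *Srrt*.

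Besides *Dgcr8*, *Tnrc6b* and *Drosha*, the counts include long host genes from which microRNAs are cut. Of 16 listed, 10 were tested. In the pooled *Fmr1* KD 2 of them were called, both higher, and in *Zfp598* KD 1 was called, lower, where 6.05% and 1.80% of all genes tested were called. With 16 genes and low counts these hosts are described by their own values. The hosts named most below carry these mature microRNAs, from RefSeq with the seed in capitals. They are shown to let the families be compared: let-7c and miR-125b are encoded with miR-99a in *Mir99ahg*, and the *Mir17hg* cluster repeats the seed of miR-17 in miR-20a and that of miR-19a in miR-19b.
mmu-miR-99a-5p: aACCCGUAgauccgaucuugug
mmu-let-7c-5p: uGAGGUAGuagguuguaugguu
mmu-miR-125b-5p: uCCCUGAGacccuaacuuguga
mmu-miR-670-5p: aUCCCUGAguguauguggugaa
mmu-miR-129-5p: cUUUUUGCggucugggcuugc
mmu-miR-9-5p: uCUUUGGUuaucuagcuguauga
mmu-miR-17-5p: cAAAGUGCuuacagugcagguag
mmu-miR-20a-5p: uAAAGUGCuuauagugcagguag
mmu-miR-19a-3p: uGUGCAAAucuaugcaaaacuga
mmu-miR-19b-3p: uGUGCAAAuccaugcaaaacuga
mmu-miR-92a-3p: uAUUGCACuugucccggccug
On GRCm39 the hairpin of miR-99a lies at chromosome 16, 77395824 to 77395888, and that of let-7c at 77396545 to 77396638. The hairpins of miR-17 and miR-92a bound the *Mir17hg* cluster on chromosome 14, from 115281103 to 115281938.

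*Mir99ahg* was higher with both *Fmr1* siRNAs. It was at 1.50, 1.26 and 1.35 CPM with Scramble siRNA A, 0.592, 0.726 and 1.60 with Scramble siRNA B, 2.85, 2.65 and 2.74 with *Fmr1* siRNA A and 2.75, 3.30 and 3.44 with *Fmr1* siRNA B, and the *Fmr1* KD and Scramble KD libraries did not overlap. The pooled log2 fold change was 1.33 ± 0.24 (SE), adjusted p = 0.00199, from 9 to 25 counts per Scramble KD library and 37 to 50 per *Fmr1* KD library. With both *Zfp598* siRNAs it stayed within 0.746 to 1.72 CPM and was not called. *Mir670hg*, the host of miR-670 and miR-129, also separated *Fmr1* KD from Scramble KD (log2 fold change 0.95 ± 0.22 (SE), adjusted p = 0.0115), but it was lower with Scramble siRNA B than with Scramble siRNA A (-0.81, adjusted p = 0.0488), and siRNA B was called (1.43, adjusted p = 0.000642) but not siRNA A (0.58, adjusted p = 0.119), with a difference of 0.85, adjusted p = 0.121. *Mir9-3hg* was higher with *Fmr1* siRNA B (2.36, adjusted p = 0.000303) and *Zfp598* siRNA B (1.44, adjusted p = 0.0226), both against the 5 to 15 counts of Scramble siRNA B, which lay below Scramble siRNA A (-1.46, adjusted p = 0.0229).

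*Mir17hg*, the host of the proliferation-linked miR-17 to miR-92a cluster, was at 22.8, 16.4 and 19.1 CPM with Scramble siRNA A and 26.6, 26.1 and 23.4 with Scramble siRNA B (0.39, adjusted p = 0.0219). Its rise was called with both A siRNAs (0.62, adjusted p = 0.000502, for *Fmr1* and 0.51, adjusted p = 0.00891, for *Zfp598*) and with neither B siRNA (0.02, adjusted p = 0.922, and 0.10, adjusted p = 0.605), and the siRNA effects differed by -0.60, adjusted p = 0.0115, in *Fmr1* KD and by -0.42, adjusted p = 0.0839, in *Zfp598* KD. *Mir124a-1hg*, a host of the neuronal miR-124, was the 1 host called in the pooled *Zfp598* KD, at -0.85 ± 0.21 (SE), adjusted p = 0.0451. It had 3.29, 3.52 and 1.59 CPM with *Zfp598* siRNA A and 2.84, 1.83 and 2.14 with *Zfp598* siRNA B, against 5.73, 5.76 and 5.25 with Scramble siRNA A and 3.03, 3.85 and 4.22 with Scramble siRNA B. The *Zfp598* siRNA A libraries overlapped those of Scramble siRNA B. By siRNA, *Mir124a-1hg* was called with A (-0.92, adjusted p = 0.0229) and not with B, and the difference between the siRNA effects was not called. It had 9 to 87 counts per library. Against Scramble siRNA A, *Mir22hg* was lower both with Scramble siRNA B (-0.59, adjusted p = 0.00858) and for *Zfp598* siRNA A (-0.72, adjusted p = 0.00766). *Mirg* was called with *Fmr1* siRNA B (2.01, adjusted p = 0.038), where its 3 libraries held between 7 and 57 counts.

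**Figure D5:**
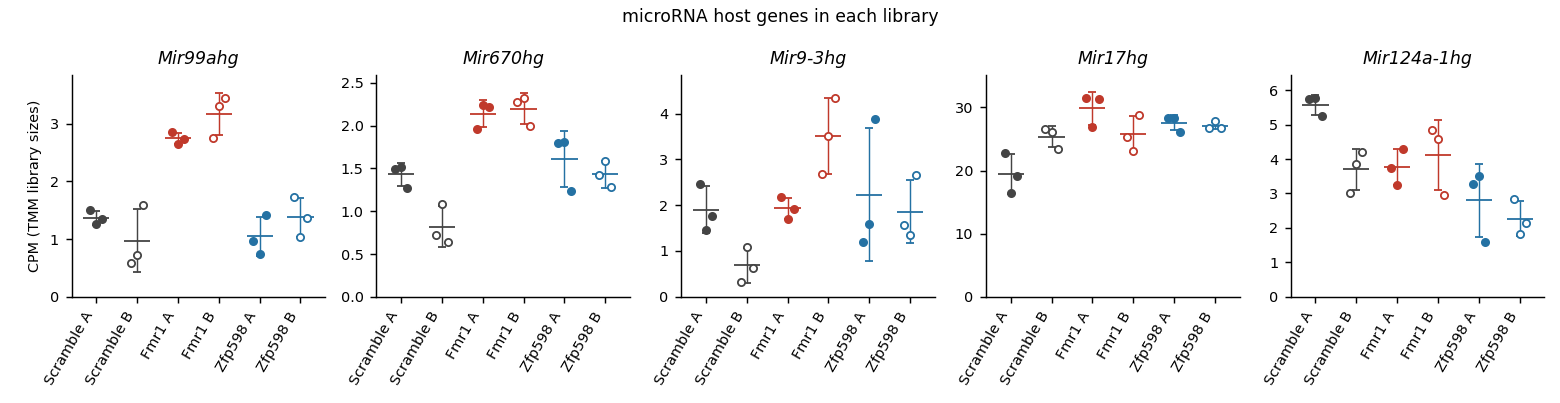
CPM of 5 microRNA host genes in each library, with 3 libraries per siRNA (filled circles for siRNA A, open for siRNA B), the group mean (line) and SD (bar); each y axis starts at 0. *Mir99ahg* is higher in all 6 *Fmr1* KD libraries than in the other 12, and *Mir9-3hg* and *Mir670hg* are lowest with Scramble siRNA B.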

How the data were processed

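RNA-seq counts of 18 libraries were used, 3 for each of 6 siRNAs. Per the study's methods, the authors trimmed reads with Trim Galore, checked them with FastQC, used STAR for alignment to GRCm39 and featureCounts for the reads on exons. The deposited values are raw read counts per gene, neither normalized nor pooled. Versions, the annotation release and the strand setting are not given in the sources used here.

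Genes were filtered with filterByExpr (minimum count 10, minimum total 15), which kept 19003 of 55414 genes (18139 of the others had 0 counts in every library). Library sizes were scaled by TMM, and edgeR 4.0.16 (R 4.3.3) quasi-likelihood models of all 18 libraries were fitted with 3 conditions, both siRNAs pooled as in the study, or with 6 siRNA groups. The Benjamini-Hochberg adjustment of p-values covered all genes tested in each of 9 comparisons. DESeq2 1.42.0, other scalings and filters, a replicate block and the removal of single libraries were alternatives. The fit was also run on simulated counts, and the outcome of that run is not given here. Exon lengths, positions and overlaps came from GENCODE M39, in which 98.8% of the gene IDs had an entry, and microRNA sequences from RefSeq (34 of 39 microRNA genes matched). Correlations used log2 of CPM plus a pseudocount of 0.5. Replicate pairs of a group differed by more than sampling noise (chi-square per degree of freedom 25.6 to 124 for *Zfp598* siRNA A and 2.71 to 35.1 for the other groups).

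The members and gene lists were chosen with earlier results of these data known. Named were the members, the siRNA targets, the 2 largest called rises and falls of the pathway lists and of the host genes in each comparison, and the genes most like each member. Others are marked in the text.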

Additional observations from a re-analysis of the deposited data

Results flagged for a closer look

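The effects of siRNA A and siRNA B to the same target, each against the Scramble siRNA of its letter, differed by an interaction test in edgeR for 9 values of the members. All are given as the effect of siRNA B minus that of siRNA A on the log2 scale. In *Fmr1* KD the difference was 0.81, adjusted p = 0.000189 for *Ago1*, -0.43, adjusted p = 0.00982 for *Ago2*, 1.00, adjusted p = 0.0443 for *Ago4*, -0.43, adjusted p = 0.0132 for *Drosha*, -0.99, adjusted p = 0.000159 for *Tnrc6a* and 0.46, adjusted p = 0.0377 for *Tnrc6b*. In *Zfp598* KD it was 0.90, adjusted p = 8.21e-05 for *Ago1*, 0.49, adjusted p = 0.013 for *Dgcr8* and -0.51, adjusted p = 0.0313 for *Tnrc6a*.

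Both Scramble siRNAs enter each of these values. *Ago1*, *Ago2* and *Tnrc6a* differed between the Scramble siRNAs themselves (-0.67, 0.26 and 0.63), and that difference is a part of each value. The other part is the difference between the siRNAs to the target, which was not tested directly. Mean CPM with *Fmr1* siRNAs A and B was 74.35 and 81.9 for *Ago1*, 743 and 659 for *Ago2* and 226 and 177 for *Tnrc6a*. With *Zfp598* siRNAs A and B it was 90.3 and 105 for *Ago1* and 171 and 186 for *Tnrc6a*. *Drosha*, *Dgcr8*, *Ago4* and *Tnrc6b* were not called between the Scramble siRNAs (log2 fold change 0.20, adjusted p = 0.108, 0.02, adjusted p = 0.909, -0.40, adjusted p = 0.254 and -0.19, adjusted p = 0.232). The Scramble siRNA libraries of *Drosha*, *Ago4* and *Tnrc6b* did not overlap, but the share of all genes without such overlap was not computed. *Drosha* was called between the Scramble siRNAs without replicates 2 and 3 of *Zfp598* siRNA A (adjusted p = 0.0493). The part of the controls in these differences was not tested. By Dixon's test with a critical value of 0.625 no member's value stood apart in any of the 30 sets of 6 libraries (10 members in 3 conditions), each of which joins 2 siRNAs. Over all genes, replicates of *Zfp598* siRNA A differed most (chi-square per degree of freedom 25.6 to 124, against 2.71 to 35.1 within the other groups).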

How the results depend on the processing

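Of the 30 calls of members, 30 were kept with DESeq2's size factors in edgeR, 30 with DESeq2, 30 without the most counted feature, 28 without the filter on low counts and 29 with the replicate number as a block, and 23 to 29 when a single library was left out. Against all 6 Scramble KD libraries 13 of 14 were kept. Members gained 2 calls with DESeq2, 2 without the filter, 2 with the block, 3 against all 6 Scramble KD libraries and 0 to 9 when a library was left out. The block's gains were *Ago3* with *Fmr1* siRNA A and *Tnrc6a* with *Fmr1* siRNA B, and without the filter *Ago1* in *Zfp598* KD and *Dicer1* with *Zfp598* siRNA A were lost. No called value changed its sign. Deviations of same-numbered libraries had r from -0.37 to 0.31, and 15 of 45 were over 0.1. For replicate 3 all were positive, from 0.048 (Scramble siRNA B with *Zfp598* siRNA B) to 0.25 (*Fmr1* siRNA A with *Zfp598* siRNA A). Replicates 1 and 2 had both signs. The numbers may thus pair some of the libraries, and the main fit does not use them. The replicate block left 1 member called in *Zfp598* KD (*Ago1* lost) and 203 genes in place of 342. Without the filter 1 member was called in *Zfp598* KD (244 genes) and 1 with *Zfp598* siRNA A (2439 genes). With counts summed per siRNA, 0 members were called in either KD. With 2-fold added to the call, 1 member remained with *Zfp598* siRNA B and 1 in the *Fmr1* difference between siRNAs, and 0 in the other 7 comparisons.

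With 1 library left out, the members called ranged from 1 to 2 in *Fmr1* KD, 0 to 3 in *Zfp598* KD, 4 to 6 with *Fmr1* siRNA A, 4 to 5 with *Fmr1* siRNA B, 1 to 5 with *Zfp598* siRNA A, 3 to 4 with *Zfp598* siRNA B, 2 to 3 between the Scramble siRNAs, 4 to 6 in the *Fmr1* difference and 2 to 4 in the *Zfp598* difference. The cause was not tested.

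Members that were not called in these comparisons changed sign under other settings, on the log2 scale. With DESeq2's size factors this was *Dicer1* 0.0064 (Scramble siRNA B). Without the filter this was *Dicer1* 0.0082 (Scramble siRNA B). With DESeq2 this was *Dicer1* 0.0065 (Scramble siRNA B). With the replicate block this was *Ago3* -0.00094 (*Zfp598* siRNA B). With the siRNA letter as a block this was *Tnrc6a* 0.0028 (*Zfp598* KD). With counts summed per siRNA this was *Tnrc6a* 0.021 (*Zfp598* KD). Against all 6 Scramble KD libraries these were *Ago1* 0.18 (*Fmr1* siRNA A), *Ago2* -0.12 (*Fmr1* siRNA A), *Tnrc6c* 0.037 (*Fmr1* siRNA A), *Drosha* 0.085 (*Fmr1* siRNA B), *Tnrc6a* 0.015 (*Fmr1* siRNA B), *Ago4* 0.088 (*Zfp598* siRNA A), *Tnrc6a* -0.034 (*Zfp598* siRNA A), *Tnrc6a* 0.086 (*Zfp598* siRNA B) and *Tnrc6b* -0.0096 (*Zfp598* siRNA B). Without *Zfp598* siRNA A replicates 2 and 3, an alternative chosen after seeing the data, these were *Ago3* 0.046 (*Zfp598* KD), *Tnrc6a* 0.10 (*Zfp598* KD), *Tnrc6b* 0.039 (*Zfp598* KD), *Ago4* 0.064 (*Zfp598* siRNA A), *Tnrc6b* 0.11 (*Zfp598* siRNA A) and *Tnrc6b* -0.034 (*Zfp598* difference). Leaving out 1 library, the ranges that crossed 0 were -0.056 to 0.079 for *Ago2* (*Fmr1* siRNA A), -0.094 to 0.022 for *Tnrc6b* (*Zfp598* KD), -0.030 to 0.063 for *Dgcr8* (Scramble siRNA B), -0.045 to 0.037 for *Dicer1* (Scramble siRNA B), -0.022 to 0.068 for *Dicer1* (*Fmr1* difference), -0.084 to 0.063 for *Tnrc6a* (*Zfp598* KD), -0.11 to 0.027 for *Dgcr8* (*Fmr1* difference), -0.082 to 0.10 for *Ago3* (*Zfp598* siRNA B), -0.074 to 0.047 for *Drosha* (*Fmr1* siRNA B), -0.057 to 0.023 for *Dicer1* (*Zfp598* siRNA B), -0.059 to 0.022 for *Tnrc6b* (*Fmr1* siRNA B) and -0.00068 to 0.13 for *Dgcr8* (*Zfp598* siRNA A). *Ago4*, with 21 to 75 counts per library, and the host genes with fewer than 100 counts are limited by depth, and alternatives were not run for the pathway lists (other than DESeq2) or the host genes.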
